A study of Arabidopsis thaliana with 4 samples.

Results

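The mitochondrion-encoded loci of Arabidopsis thaliana were taken as every locus of the count table whose identifier begins with ATMG, which gave 146 of 32678 loci. Each of them has 1 transcript model and so 1 of the 40745 rows. They were measured by RNA sequencing in 4 rosette cores that form the only group of the study, so the design holds no contrast and the data describe levels and their spread. The plants were untreated, of the accession Col-0 and 31 days old, held cold at 4 °C after sowing (1 to 2 days) and then grown on soil at 22 °C in 16-h days. A core is the middle 1.5 to 2 cm of a rosette, which mixes the shoot apex with leaf tissue. The labels do not state whether the cores are from different plants or how many plants a core pooled, so p-values here measure only the spread between 4 libraries, which may be technical. Ribosomal RNA was depleted from the total RNA with a kit made for plant leaf, and the libraries kept the strand of the RNA.

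The mitochondrial genome of plants encodes a small set of proteins, among them core subunits of respiratory complexes I, III and IV and of ATP synthase, factors of cytochrome c maturation and some ribosomal proteins, together with the ribosomal RNAs and part of the transfer RNAs of the organelle. All other mitochondrial proteins are made from nuclear genes and imported. Mitochondrial transcripts are made by phage-type RNA polymerases, are spliced and edited from C to U, and mostly lack stable poly(A) tails. In Col-0 a large stretch of mitochondrial DNA has also been copied into nuclear chromosome 2, so many mitochondrial genes have a near-identical nuclear partner.

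The following stretches, 120 bases each from the TAIR10.1 assembly of RefSeq, show a pair of mitochondrial genes beside their near-identical nuclear partners and, for contrast, a gene without such a copy. Capitals mark the bases that differ between the members of a pair. The reference annotation names the mitochondrial genes but does not pair them with ATMG identifiers, and notes on nuclear loci give the ATMG partner. The gene nad3, which encodes a complex I subunit, and AT2G07751, whose note names ATMG00990, were identical over these bases. The gene rpl2, which encodes a ribosomal protein, and AT2G07715, whose note names ATMG00560, had 2 mismatches in the stretch shown. The gene cox2, which encodes a complex IV subunit, has no nuclear copy at 98% identity or more. It is shown with AT2G07695, a locus annotated as similar to cytochrome c oxidase subunit II, and the 2 stretches had 10 mismatches. The note on AT2G07695 names ATMG01280 and not cox2. All 876 bases of AT2G07695 aligned to the mitochondrial genome outside cox2, at 99.8% identity.
nad3, chrMT:288044-288163, plus strand: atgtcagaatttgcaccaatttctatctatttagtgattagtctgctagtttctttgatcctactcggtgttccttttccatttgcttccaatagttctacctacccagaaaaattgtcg
AT2G07751, chr2:3270008-3270127, plus strand: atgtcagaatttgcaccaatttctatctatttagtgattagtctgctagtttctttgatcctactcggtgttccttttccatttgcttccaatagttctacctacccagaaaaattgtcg
rpl2, chrMT:222032-222151, minus strand: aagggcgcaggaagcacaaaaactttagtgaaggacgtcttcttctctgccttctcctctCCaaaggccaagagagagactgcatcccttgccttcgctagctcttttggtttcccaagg
AT2G07715, chr2:3411639-3411758, plus strand: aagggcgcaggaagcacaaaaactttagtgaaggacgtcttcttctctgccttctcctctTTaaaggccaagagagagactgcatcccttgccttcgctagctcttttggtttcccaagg
cox2, chrMT:6450-6569, plus strand: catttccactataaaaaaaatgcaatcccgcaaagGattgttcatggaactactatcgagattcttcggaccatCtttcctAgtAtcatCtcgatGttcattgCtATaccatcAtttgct
AT2G07695, chr2:3347137-3347256, plus strand: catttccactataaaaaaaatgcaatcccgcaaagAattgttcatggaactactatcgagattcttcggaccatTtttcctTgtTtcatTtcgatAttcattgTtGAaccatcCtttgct

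The libraries held 7692788, 6821456, 6998463 and 5639486 counts in cores 1 to 4, so that 3 counts, the limit a count of 0 allows, equal 0.390 to 0.532 CPM, counts scaled to a library total of 1000000. Intervals and this limit cover counting error only. The shoot apex markers STM and KNAT1 reached 89.3 to 313 CPM and 90.6 to 285 CPM, the leaf markers LHCB1.3 (AT1G29930) and LHCB6 18807 to 26529 CPM and 2010 to 3710 CPM, and CUC2, a gene of organ boundaries, 3.52 to 4.79 CPM. The root markers EXPA7 and RHD6 and the pollen marker VGD1 (AT2G47040) stayed below 0.3 CPM in every core. The markers measured thus go with the tissue label.

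Mitochondrial loci took 0.556, 0.696, 1.32 and 0.840% of all counts in cores 1 to 4. The 95% exact binomial intervals ran from 0.551 to 0.562%, from 0.689 to 0.702%, from 1.31 to 1.33% and from 0.832 to 0.847%. The mean was 0.853 ± 0.333% (SD, n = 4), with no overlap between any of the 4 intervals and the highest value in core 3. The 2 ribosomal RNA loci set apart here were ATMG00020 and ATMG01390. They held 88.7, 90.5, 91.3 and 89.3% of the mitochondrial counts in cores 1 to 4. The mean was 90.0 ± 1.13% (SD, n = 4). The 95% exact binomial intervals of the ribosomal RNA portion did not overlap either, with the lowest at 88.4 to 89.0% in core 1 and the highest at 91.1 to 91.4% in core 3. The mitochondrial share itself differed 2.38-fold between cores. The other loci together reached 0.0626, 0.0662, 0.116 and 0.0895% of all counts in cores 1 to 4, a mean of 0.0835 ± 0.0245% (SD, n = 4). Core 3 was highest and cores 1 and 2 were lowest in both measures. A bulk library cannot tell fewer cells or mitochondria from less RNA in each.

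**Figure D1:**
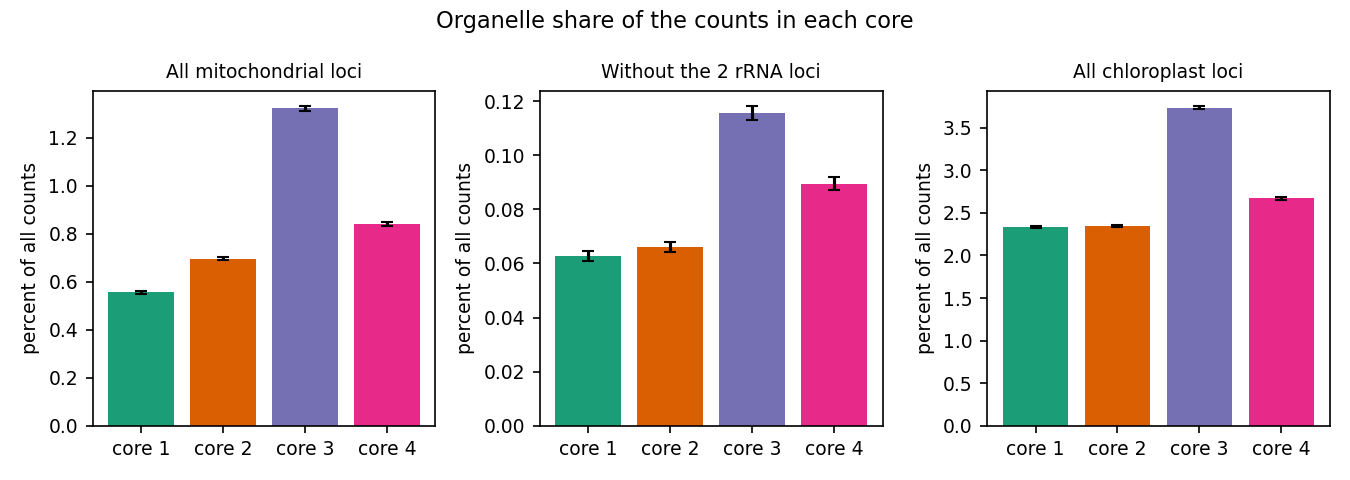
Share of all counts, in percent, on all mitochondrial loci (left), on mitochondrial loci without the 2 ribosomal RNA loci (middle) and on all chloroplast loci (right) in each of the 4 cores; bars are single libraries and whiskers are 95% exact binomial intervals. Core 3 is highest in each panel, at 1.32, 0.116 and 3.74%.

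Other measures were set beside the mitochondrial share. Some moved with it and others did not, and their part in it was not tested. Chloroplast loci took 2.33, 2.34, 3.74 and 2.67% of all counts in cores 1 to 4 and were also highest in core 3. The mitochondrial over the chloroplast share was 0.238, 0.297, 0.354 and 0.314 in cores 1 to 4, so it too was highest in core 3. Of the markers, STM had 180, 313, 89.3 and 153 CPM and KNAT1 142, 285, 90.6 and 102 CPM in cores 1 to 4, both lowest in core 3, while LHCB6 was highest there with 3710 CPM. LHCB1.3 was highest in core 1 and CUC2 in core 4. Few counts fell on the 4 cytosolic ribosomal RNA loci listed: the highest, AT3G41768 for 18S ribosomal RNA, had 17, 15, 2 and 3 counts in cores 1 to 4. AT2G01020 had 5, 4, 1 and 5 counts, AT3G41979 0, 0, 3 and 0, and AT2G01010 none.

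The 2 ribosomal RNA loci set apart were the highest of all mitochondrial loci, and this pair did not keep a fixed proportion. The reference annotation also holds the ribosomal RNA gene rrn5. It is not paired with an ATMG identifier there, so it may be among the other loci. ATMG00020 had 4238, 4910, 6920 and 4968 CPM in cores 1 to 4, a mean of 5259 ± 1156 CPM (SD, n = 4) and a 1.63-fold range. ATMG01390 had 698, 1385, 5148 and 2533 CPM, a mean of 2441 ± 1957 CPM (SD, n = 4) and a 7.37-fold range, the widest among mitochondrial loci with at least 40 counts. Both were highest in core 3 and lowest in core 1. The ratio of ATMG01390 to ATMG00020, which does not depend on the library total, was 0.165, 0.282, 0.744 and 0.510 in cores 1 to 4. On the log2 scale the ratio was -2.60, -1.83, -0.43 and -0.97, a mean of -1.46 ± 0.96 (SD, n = 4). Because a kit removed ribosomal RNA before sequencing, these values are what was left and not the level in the tissue.

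Outside the ribosomal RNA loci a few loci held nearly all counts. ATMG00030, ATMG01360 and ATMG00090 took 84.8, 84.2, 93.3 and 92.5% of the counts on the other loci in cores 1 to 4. Neither the count table nor the reference annotation states what these loci encode, so they are given by identifier. Gene lengths were not at hand for ATMG loci, so a higher CPM of one locus than of another may reflect its length. ATMG00030 had 377, 396, 765 and 580 CPM in cores 1 to 4, a mean of 529 ± 182 CPM (SD, n = 4). ATMG01360 had 92.4, 106, 232 and 199 CPM, a mean of 157 ± 68.8 CPM (SD, n = 4). Both were low in cores 1 and 2 and high in cores 3 and 4. ATMG00090 had 62.0, 56.1, 80.9 and 49.3 CPM, a mean of 62.1 ± 13.6 CPM (SD, n = 4), and was high in core 3 alone. ATMG00030 over ATMG00020 was 0.0889, 0.0806, 0.111 and 0.117 in cores 1 to 4, a 1.45-fold range beside the 4.51-fold range of the ribosomal RNA ratio.

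**Figure D2:**
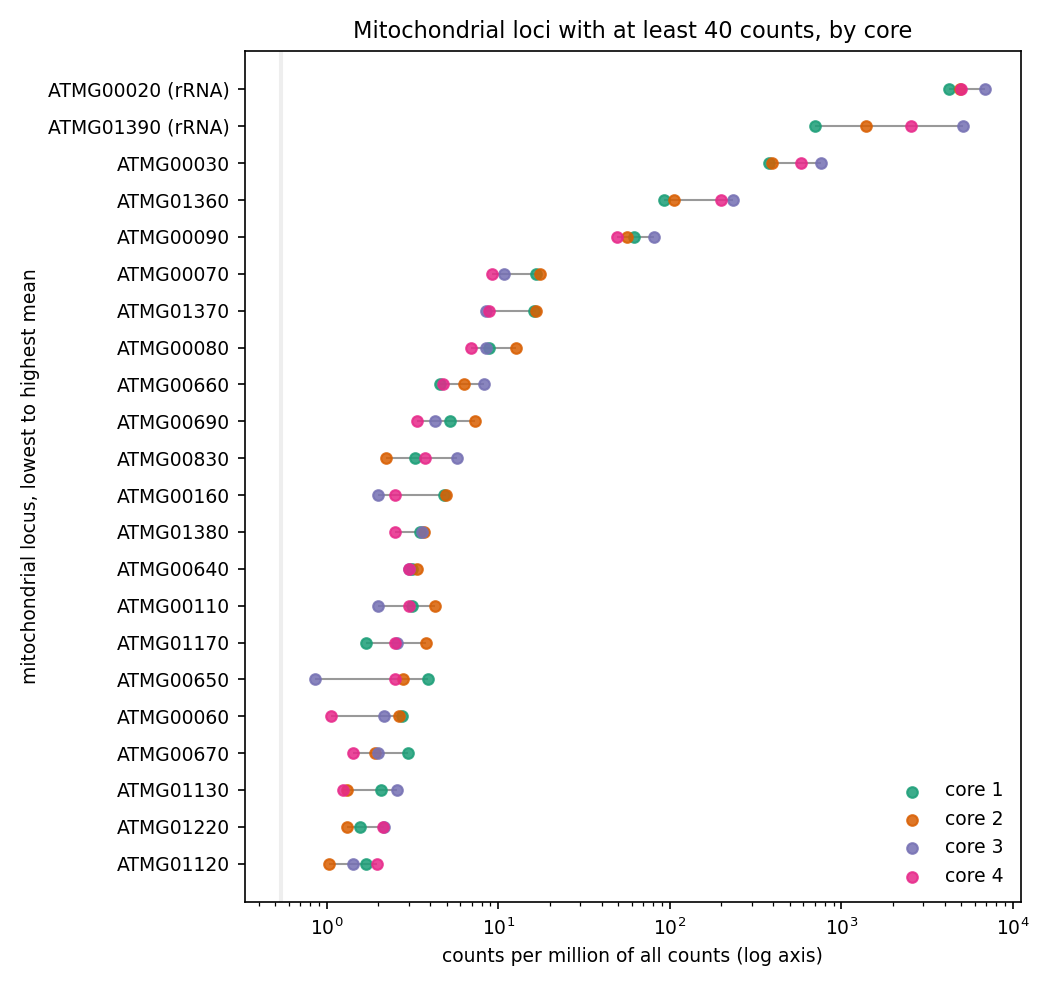
CPM of all counts on a log axis for the 22 mitochondrial loci with 40 counts or more in all, ordered by mean with the highest at the top; each point is a core and the grey line spans the lowest to the highest core. The pale vertical line is the largest limit that a count of 0 allows, 0.532 CPM, and ATMG01390 spans 698 to 5148 CPM, the widest range of a locus shown.

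Which loci differed between cores by more than counting reads allows was tested per locus against a Poisson model of even rates (chi-square, Benjamini-Hochberg adjustment) over all 14663 loci that have 1 transcript model and at least 20 counts. Of the 26 mitochondrial loci with at least 20 counts, 13 passed an adjusted p of 0.05, which is 50%, against 62.2% of all loci tested (9120 of 14663) and 94.5% of chloroplast loci (86 of 91). The share called was higher for loci with more counts. Of loci with 20 to 99 counts, 2 of 15 mitochondrial loci were called, against 30.4% of all loci. With 100 or more and under 1000 counts it was 6 of 6, against 55.7% of all loci. With 1000 counts or more it was 5 of 5, against 84.1% of all loci. Spread beyond counting noise need not be spread beyond that of other genes. With edgeR's quasi-dispersion set against genes of the same level, 0 of 26 mitochondrial loci and 0 of 14663 loci in all were called. As it called no locus at all, that test cannot show mitochondrial loci to be like or unlike others. At an unadjusted p under 0.05 that test named 2 of 26, ATMG01360 and ATMG01390. The share of all loci under that cut was not taken, so these 2 cannot be set against it. The smallest adjusted p of that test for a mitochondrial locus was 0.99. A negative binomial test with DESeq2's dispersion trend called ATMG01360 and ATMG01390, beside 251 of all loci (1.71%). Its adjusted p was 6.79e-11 for ATMG01390 and 0.0315 for ATMG01360. The median ratio of the highest to the lowest core was 2.09 over the 24 tested loci without the ribosomal RNA loci and 1.52 over all loci tested. The sets differ in depth, and fewer counts widen this ratio. At 20 to 99 counts it was 2.13 over 15 mitochondrial loci and 2.56 over all loci. At 100 or more and under 1000 counts it was 1.93 over 6 mitochondrial loci and 1.53 over all loci. With 1000 counts or more it was 2.03 over 3 mitochondrial loci and 1.37 over all loci.

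The loci called were not all highest in the same core. Of the 13 called loci, 7 were highest in core 3, 5 in core 2 and 1 in core 1. Over all loci tested, called or not, 26.1% were highest in core 3, 37.5% in core 2 and 15.8% in core 1. The shares among all called loci were not taken. The 4 most abundant mitochondrial loci, ATMG00020, ATMG01390, ATMG00030 and ATMG01360, shared the order core 3, core 4, core 2, core 1 from high to low, and no other tested mitochondrial locus had that order. The adjusted p was 1.38e-288 for ATMG00030 and 1.56e-137 for ATMG01360, and for both ribosomal RNA loci it was too small for the software to represent. ATMG00090 was called with an adjusted p of 1.1e-11. ATMG00660 had 4.55, 6.30, 8.29 and 4.79 CPM in cores 1 to 4 (adjusted p = 0.0282) and ATMG00830 3.25, 2.20, 5.72 and 3.72 CPM (adjusted p = 0.0128). Both were highest in core 3, and both calls were lost when core 3 was left out, with adjusted p = 0.393 for ATMG00660 and 0.367 for ATMG00830. The call of ATMG00660 was also lost without core 1 (adjusted p = 0.0840), and that of ATMG00830 without core 2 (adjusted p = 0.0987).

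The remaining called loci were highest in core 1 or core 2 and lowest in core 3 or core 4. ATMG00070 had 16.6, 17.4, 10.9 and 9.22 CPM in cores 1 to 4 (adjusted p = 7.38e-05). ATMG01370 had 16.1, 16.6, 8.43 and 8.87 CPM (adjusted p = 2.33e-06). In both loci cores 1 and 2 lay above cores 3 and 4 with a gap between them, the reverse of ATMG00030 and ATMG01360. ATMG00160 had 4.81, 4.98, 2.00 and 2.48 CPM, with the same split (adjusted p = 0.00741, and 0.106 without core 3). ATMG00080 had 8.84, 12.8, 8.43 and 6.92 CPM and was high in core 2 (adjusted p = 0.00948, and 0.545 without core 2). ATMG00690 had 5.2, 7.33, 4.29 and 3.37 CPM, also highest in core 2 (adjusted p = 0.0223, but 0.374 without core 2 and 0.0782 without core 4). ATMG00650 had 3.90, 2.79, 0.857 and 2.48 CPM, the lowest value resting on 6 counts in core 3 (adjusted p = 0.00722, and 0.382 without core 3). Its 4.55-fold range was the widest among the loci outside the ribosomal RNA pair with at least 40 counts. Taken without ATMG00030, ATMG01360 and ATMG00090, the other loci summed to 95.4, 104, 77.4 and 66.9 CPM in cores 1 to 4, highest in core 2 and lowest in core 4. The higher mitochondrial share of core 3 thus lay in the ribosomal RNA loci and in ATMG00030, ATMG01360 and ATMG00090.

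**Figure D3:**
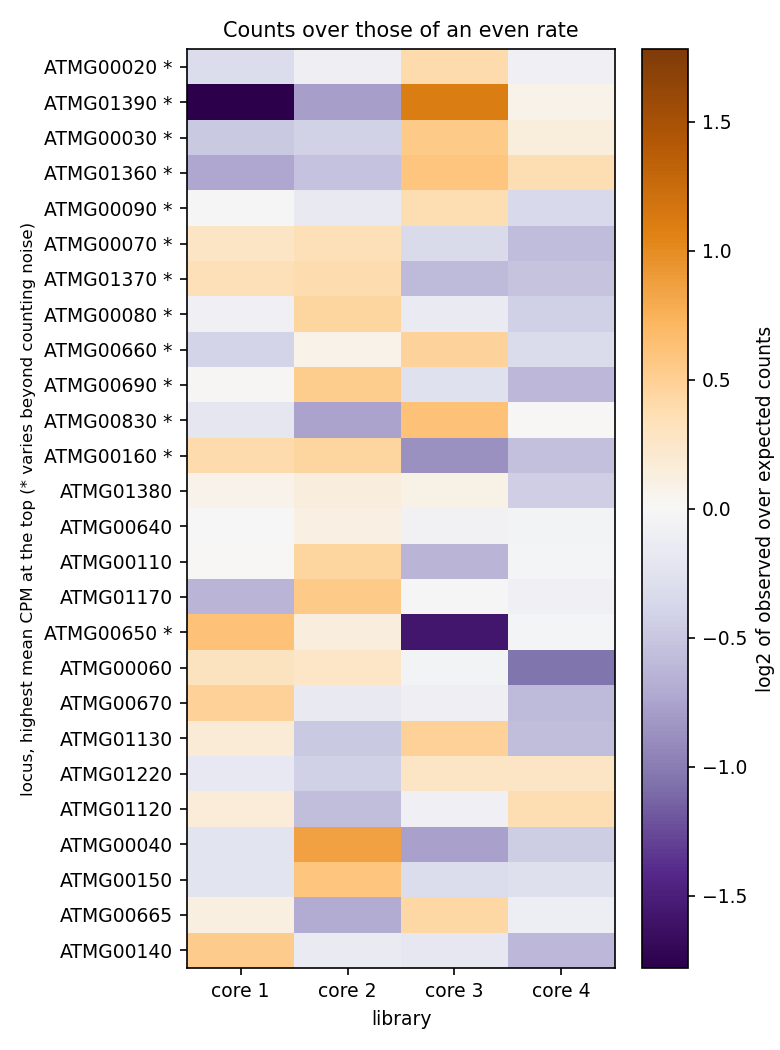
Log2 of the observed counts over those expected at an even rate across libraries, for the 26 mitochondrial loci with at least 20 counts (rows, highest mean CPM at the top) in each of the 4 cores (columns); an asterisk marks the 13 loci called by the chi-square test. The 4 rows at the top are highest in core 3 and lowest in core 1, while ATMG00070, ATMG01370 and ATMG00160 are higher in cores 1 and 2 than in cores 3 and 4.

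Against the total of the other mitochondrial loci in place of the library total, 17 of 26 loci were called. Of all loci, 87.6% were called under that scaling. ATMG00030, ATMG01360 and ATMG00090 made up 84.2 to 93.3% of this total and were themselves tested. A locus even against the library total can thus be called. The scaling kept 11 of the 13 calls and lost ATMG00660 and ATMG00830. It added ATMG00040, ATMG00060, ATMG00110, ATMG00670, ATMG01170 and ATMG01380. The 5 loci of narrowest range were ATMG00640, ATMG01380, ATMG01220, ATMG00020 and ATMG00090, and the last 2 of them were called. ATMG00640 had 3.12, 3.37, 3.00 and 3.01 CPM, a 1.12-fold range and the narrowest of the 22 loci with at least 40 counts (adjusted p = 0.981). ATMG01380 had 3.51, 3.66, 3.57 and 2.48 CPM (adjusted p = 0.697), and ATMG01220 had 1.56, 1.32, 2.14 and 2.13 CPM (adjusted p = 0.636), a 1.48-fold and a 1.62-fold range. These values rest on 9 to 27 counts per core, and modest differences were not detectable at this depth. ATMG00110 had 3.12, 4.25, 2.00 and 3.01 CPM, ATMG01170 1.69, 3.81, 2.57 and 2.48 CPM, and ATMG00060 2.73, 2.64, 2.14 and 1.06 CPM, with no call in any of them. ATMG00670, ATMG01130 and ATMG01120 had mean levels of 2.08 ± 0.659, 1.80 ± 0.637 and 1.52 ± 0.394 CPM (SD, n = 4) and were not called.

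Of the 24 tested loci outside the ribosomal RNA pair, 4 were highest in core 1, 11 in core 2, 8 in core 3 and 1 in core 4. Over all loci tested 15.8, 37.5, 26.1 and 20.5% were highest in cores 1 to 4. Core 2 was thus the most frequent highest core for mitochondrial loci (45.8%) as for all loci. A further 4 loci had 20 to 39 counts and mean levels of 0.787 to 1.21 CPM, none of them called. Another 16 loci had 1 to 19 counts, at most 1.04 CPM in any core, and were not tested.

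No counts in any library were found for 104 of the 146 mitochondrial loci (71.2%), against 37 of 133 chloroplast loci and 3647 of 26516 nuclear loci with 1 transcript model (13.8%). In order of identifier the loci with no counts lay in long runs. ATMG00170 to ATMG00550 (42 loci), ATMG00840 to ATMG01010 (18 loci) and ATMG00730 to ATMG00820 (10 loci) were the longest. Shorter runs were ATMG01030 to ATMG01100 (8 loci), ATMG01270 to ATMG01320 (7 loci), ATMG00570 to ATMG00620 (6 loci), ATMG01180 to ATMG01210 (4 loci), ATMG01140 to ATMG01160 and ATMG01230 to ATMG01250 (3 loci each). These 9 runs held 101 loci, and ATMG00100, ATMG00700 and ATMG01340 stood alone. Loci with counts were clustered too. ATMG00010 to ATMG00090 held 159209 of the counts and ATMG01350 to ATMG01410 69770, and ATMG00630 to ATMG00690 followed with 565. In each core taken alone, a count of 0 is compatible, by counting alone, with up to 0.390 to 0.532 CPM, the library's limit. A level shared by all 4 cores would have to be lower to leave no counts in any of them.

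**Figure D4:**
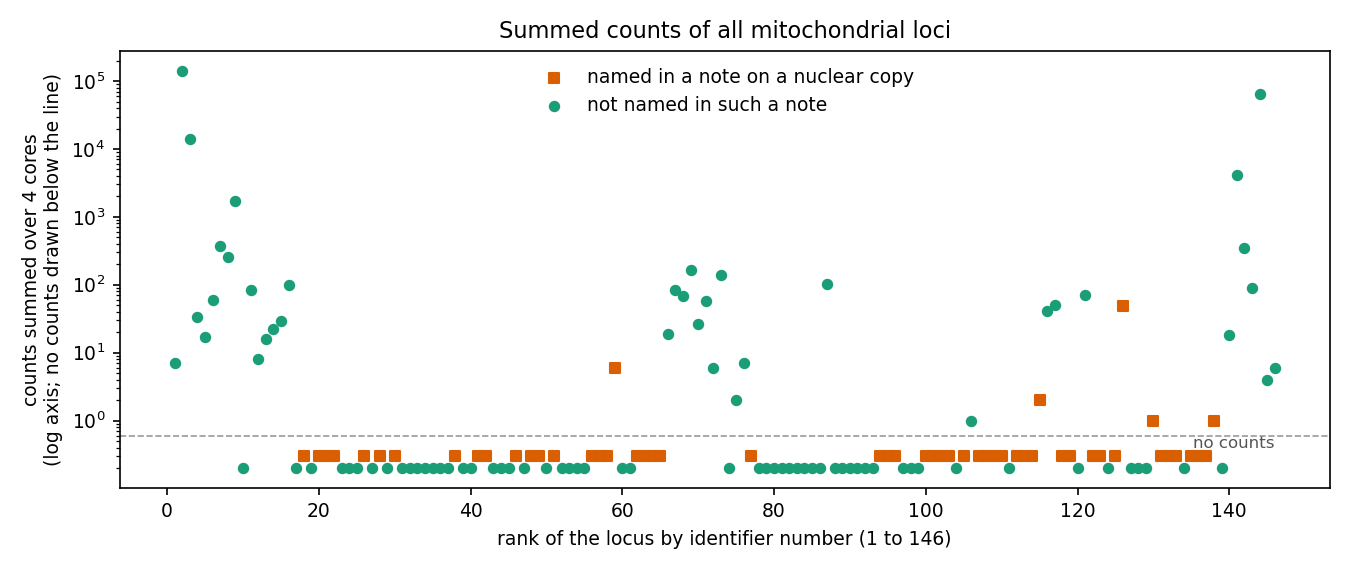
Counts summed over the 4 cores (log axis, loci with no counts drawn below the dashed line) for all 146 mitochondrial loci in order of identifier number; squares are the 53 loci named in an annotation note on a nuclear locus and circles the other 93. Nearly all squares, 48 of 53, lie below the line.

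The loci with no counts were set beside the nuclear copy of mitochondrial DNA. Alignment of the mitochondrial genome (367808 bases) to the nuclear chromosomes of TAIR10.1 placed 73.1% of its bases in a nuclear copy at 98% identity or more. The copy lies on chromosome 2 between positions 3239038 and 3509765, in 17 aligned blocks of at least 2 kb with a mean identity of 99.91%. Among the RefSeq mitochondrial genes, 22 of 33 protein-coding genes and 19 of 22 transfer RNA genes lay wholly inside a nuclear copy. None of the 3 ribosomal RNA genes rrn5, rrn18 and rrn26 did, and each was covered over less than 10% of its length. The protein-coding genes covered over less than 10% were cox1 and cox2 for complex IV, nad9 for complex I, atp4 for ATP synthase, ccmB for cytochrome c maturation and rps3 for the mitochondrial ribosome. In part covered were rpl16 (40.6%), nad1 (80.4%), nad5 (71.9%), nad4L (24.4%) and the second copy of atp6 (72.5%).

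A total of 53 ATMG loci are named in annotation notes on nuclear loci, 45 of them as the best protein match and 9 as the source of a pseudogene, with 1 named in both ways. Of these 53 loci, 48 had no counts (90.6%), and the others summed to 58 counts over all libraries. Of the 93 loci that no note names, 56 had no counts (60.2%), and the others summed to 230075 counts. A locus that no note names may still have a nuclear copy. The pairs reached 16 RefSeq genes, and nad4, nad6 and nad7, which lie wholly inside the copy, were not among them. Loci with no counts included the partners of named respiratory genes: ATMG00990 (nad3, complex I), ATMG00220 (cob, apocytochrome b of complex III), ATMG00730 (cox3, complex IV), and ATMG01190 (atp1), ATMG01080 (atp9), ATMG00480 (atp8) and ATMG00410 (atp6) of ATP synthase. ATMG00980 (rps12), ATMG01270 (rps7), ATMG00290 (rps4) and ATMG00210 (rpl5), for proteins of the mitochondrial ribosome, and ATMG00900 (ccmC), for cytochrome c maturation, also had none. These pairings come from the note on the nuclear copy and from where that copy aligns in the mitochondrial genome.

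Few of the loci named in such notes had counts. These were ATMG01220 with 48 counts, ATMG00560 with 6, ATMG01110 with 2, and ATMG01260 and ATMG01330 with 1 each. In 52 of the 55 pairs the nuclear locus aligned to the mitochondrial genome over its whole length. The exceptions were AT2G07798 (77.9%), AT2G07749 (98.8%) and AT2G07706 (95.4%). Their notes name ATMG01220, ATMG01110 and ATMG00470, with 48, 2 and 0 counts. How much of each ATMG locus lies in a nuclear copy was not measured, and its part in the counts was not tested. ATMG00560 is the partner of AT2G07715, whose mismatches to rpl2 are printed above. It had 0, 1, 2 and 3 counts in cores 1 to 4.

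The nuclear copies themselves also had few counts. Of 46 nuclear partner loci with a row in the table, 35 had no counts, and all of them summed to 88 counts, 35 of these on AT2G07698, the partner of ATMG01190. Inside the aligned blocks 102 loci had 37, 35, 24 and 14 counts in cores 1 to 4, and 81 of them had none. Between AT2G07660 and AT2G07850 the locus with the most counts was AT2G07680, which encodes the transporter ABCC13 and lies outside the blocks at chr2:3514668-3522658. It had 9.23, 11, 12.3 and 9.93 CPM in cores 1 to 4 and held 288 of the 425 counts in that range. How reads that align to several places were counted is not given in the sources used here, and its part in the loci with no counts was not tested.

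Nuclear genes of mitochondrial function were taken from 9 lists, and most were not highest in core 3, where the mitochondrial share was highest. Of the 76 genes, 50 have 1 transcript model and were measured, and 26 have several models, for most of which the rows hold almost no counts. Among the 46 measured genes with at least 20 counts, 34 were called (73.9%), against 62.2% of all loci tested. By depth, 24 of 27 list genes with 1000 counts or more were called (88.9%), against 84.1% of all such loci, and 10 of 19 with fewer counts (52.6%), against 55.7% of all loci with 100 or more and under 1000 counts. The calls given per list are to be read against these shares. The median ratio of highest to lowest core was 1.34 over the 46 genes. Of the 46, 6 were highest (13%) and 19 lowest (41.3%) in core 3, beside 26.1 and 32.4% of all loci tested, and the difference was not tested. All 3 polymerase genes of the list, RPOTm, RPOTmp and RPOTp, have several models and were set aside.

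Subunits of ATP synthase were the most abundant list, with a median of 289 CPM per kb of exon, and all 6 measured members were called. The highest, AT5G47030, had 705, 690, 555 and 632 CPM in cores 1 to 4 and was lowest in core 3, and the lowest per kb, AT5G08680, had 207, 270, 200 and 199 CPM. Complex I subunits had a median of 129 CPM per kb with 4 of 4 called. FRO1, its highest member per kb, had 182, 158, 227 and 214 CPM and was highest in core 3, while GAMMA CA2, a carbonic anhydrase subunit and the lowest per kb, had 226, 242, 188 and 227 CPM and was lowest there. A gene of the opposite strand overlaps more than 20% of the exon bases of GAMMA CA2. Of the list of complexes II and III and cytochrome c, 5 of 7 were called. SDH5, a complex II subunit, was even at 270, 281, 270 and 277 CPM (adjusted p = 0.575), and CYTC-2, which encodes cytochrome c, had 29.0, 39.1, 18.6 and 23.8 CPM. For complex IV and its assembly, 6 of 6 were called, from COX6B with 236, 230, 166 and 220 CPM to COX15 with 18.6, 20.1, 17.1 and 30.5 CPM.

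Of the measured genes that maintain mitochondrial DNA 3 of 7 were highest in core 3, as were 2 of 5 tested genes of alternative respiration, and 5 of the 7 were called. GYRA, a DNA gyrase subunit of both organelles, had 67.1, 65.4, 93.0 and 91.1 CPM in cores 1 to 4 and was higher in cores 3 and 4. MSH1, which restrains recombination between repeats of the mitochondrial genome, had 7.80, 11.7, 18.3 and 14.0 CPM (adjusted p = 1.31e-06) and was highest in core 3 and lowest in core 1. Of the list of splicing, editing and turnover factors 3 of 9 were called. The RNA helicase gene PMH2 had 42 to 49.5 CPM, and the editing factor gene MEF1 had 7.15, 6.30, 3.86 and 5.50 CPM, neither of them called. Of the alternative respiration genes 4 of 5 tested members were called. PUMP1, an uncoupling protein gene, was the highest per kb at 174, 164, 168 and 212 CPM, and AOX2, for an alternative oxidase, had no counts. NDA1, an alternative NADH dehydrogenase gene, had 4.81, 1.61, 5.0 and 6.03 CPM, a 3.74-fold range with the low value in core 2 (adjusted p = 0.00195). Of the carriers and pores VDAC1, the pore of the outer membrane, had 492, 480, 439 and 565 CPM and was called. An opposite-strand gene overlaps more than 20% of its exon bases. AAC3, an ATP/ADP carrier gene, had 10.9, 11.4, 8.86 and 6.92 CPM and was not called.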

How the data were processed

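Total RNA of 4 rosette cores was depleted of ribosomal RNA and sequenced on an Ion Proton with strand-specific adapters, per the labels' protocols. The authors deposited unnormalized counts of reads, 1 row for each transcript model of TAIR10. HTSeq, Torrent Suite 4.0.2 and TAIR10 are named in the labels' protocols and the submitters' processing notes. For the aligner and the counting settings, nothing is given in the sources used here. From these counts CPM of all counts, exact binomial 95% intervals and chi-square tests of Poisson heterogeneity were computed (Python 3.11.15, scipy 1.17.1), with Benjamini-Hochberg adjustment over 14663 loci with at least 20 counts and a threshold of 0.05. edgeR 4.0.16 and DESeq2 1.42.0 in R 4.3.3 gave the alternatives. The test was checked on counts for 14663 loci simulated with Poisson noise only, some of them raised in 2 of the 4 libraries. It called 34 of 50 loci changed 1.5-fold, 45 of 50 at 2-fold, 49 of 50 at 4-fold and 50 of 50 at 8-fold, with 9 false calls. As the simulation held no other spread between libraries, it shows nothing of the spread between real cores. Sequences, exon lengths and coordinates, counted from 1, come from RefSeq's annotation of TAIR10.1, whose mitochondrial record is not keyed by ATMG identifier. The mitochondrial genome was aligned to the nuclear chromosomes with BLAST 2.17.0 (megablast) at 98% identity or more. The text names the 2 ribosomal RNA loci, the 20 other loci of highest mean CPM, the 5 widest and 5 most even loci with at least 40 counts, runs of at least 3 loci with no counts, and of each nuclear list the highest and lowest measured member and those varying over 3-fold. Further loci were named after their values were seen. Members and lists were chosen with earlier results of these data known.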

Additional observations from a re-analysis of the deposited data

Results flagged for a closer look

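ATMG01380 stood apart in core 4. It had 2.48 CPM there, against 3.51, 3.66 and 3.57 CPM in cores 1 to 3, a gap to its nearest neighbour of 0.869 of the whole range. It rested on 14 counts in core 4, and the locus was not called as varying beyond counting noise (chi-square test, adjusted p = 0.697). It was the only result to be far from the others among 27 examined, and chance alone flags about 1 in 20.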

How the results depend on the processing

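Both edgeR's quasi-dispersion and DESeq2's dispersion trend ask for more spread than other genes show, and the former called 0 of 14663 loci in all. The count of mitochondrial loci varying beyond counting noise was 13 of 26, beside 62.2% of all loci. This count fell to 0 with the former and to 2 with the latter, which called 1.71% of all loci. It was 9 to 12 of 23 to 25 tested when each core was left out in turn, beside 49.6 to 58.5% of all loci. With DESeq2 size factors it was 12 of 26 (ATMG00690 lost), beside 60.9%, and with TMM 13 of 26, beside 60.8%. Without a minimum it was 13 of 42, beside 38.3%, and with all rows 13 of 26, beside 58.7%. It was 12 of 16 with edgeR's filter, beside 65.7%, and 11 of 24 without the ribosomal RNA loci, beside 62.1%. With the total of the other mitochondrial loci it was 17 of 26, beside 87.6%. Leaving out each core moved the mean mitochondrial share to 0.697 to 0.953%, the share of the other loci to 0.0728 to 0.0904%, the ribosomal RNA part to 89.5 to 90.4%, the log2 ratio to -1.80 to -1.08 and the loci with no counts to 104 to 106. Other denominators gave 0.861 to 0.888%, and allowing up to 3 counts gave 109 loci. TMM and DESeq2 size factors moved no library by 5% or more. No paired analysis was possible because the study has 1 group. Loci under 100 counts were rarely called, which limits what can be said of them.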
